A study of Danio rerio with 2 samples.

Results

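Of the 84 pathway genes on a PI3K-Akt PCR array, 2 encode proteins that act on double-stranded RNA, namely eif2ak2 and adar. They were picked by gene symbol, and both matched the RefSeq gene of that symbol through the accession in the array's annotation. Eif2ak2 encodes the protein kinase PKR, and adar encodes an RNA-specific adenosine deaminase. Their transcripts were compared between NOD1-deficient and wild-type (WT) zebrafish larvae, in level, in spread between replicates and in change.

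PKR is a sensor of double-stranded RNA, a molecule that viruses produce during replication. When the kinase binds such RNA it phosphorylates itself and then the translation initiation factor eIF2 alpha, which slows protein synthesis. In mammals and in fish its gene is induced by interferon. ADAR converts adenosine to inosine within double-stranded RNA. In mammals, this editing keeps the cell's own double-stranded transcripts from activating cytoplasmic sensors, PKR among them. In the RefSeq gene order of zebrafish (assembly GRCz12tu), eif2ak2 lies next to pkz, which encodes a related kinase of fish with Z-DNA binding domains. The array holds no assay for pkz, and whether the eif2ak2 primers also amplify it was not tested.

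NOD1 is an intracellular receptor for fragments of bacterial peptidoglycan. The NOD1-deficient larvae were homozygotes of NOD1-1IS-/-, a single line with a 1 base pair insertion made with Cas9/gRNA, and the WT larvae were of the AB/TU background. Both were collected at 10 days post fertilization (dpf). In the paper, the mutants hatched later than WT, and fewer of their embryos survived, with most deaths in the first day. Among hatched larvae, survival of the mutants began to fall below that of WT around this age. For its hatching and survival assays the paper took eggs from WT and from mutant parents, and it does not state the background of the mutant line. Effects of stage, of larval loss, of parents and of background cannot be told apart from those of the genotype here. Each group had 3 biological replicates, each of which was a pool of 200 to 250 whole larvae run on 1 array of 96 wells. In whole larvae, a change in the number of cells that express a gene and a change in RNA per cell cannot be told apart. The array has no assay for nod1, so the genotype could not be checked on it.

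Each well gave a threshold cycle (Ct), which is the number of PCR cycles needed to reach a set amount of product. An early Ct means much template, and a step of 1 cycle is about 2 times as much. Across the pathway genes and the 6 arrays, Ct ran from 17.8 to 35.1 with a median of 22.7, and both members gave a Ct on each array. Expression was read as minus delta Ct, which is the mean Ct of the reference genes hprt1, nono and rpl13a on an array minus the Ct of the gene on that array. This is a log2 scale, and less negative values mean higher expression. The mean Ct of the 3 reference genes was 19.5 ± 0.107 in NOD1-deficient and 19.8 ± 0.144 in WT arrays (SD, n = 3 each). This difference of -0.30 cycles enters each log2 change that is scaled to these 3 genes.

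Eif2ak2 was higher in NOD1-deficient larvae. Its raw Ct was 26.1, 26.4 and 26.2 in NOD1-deficient replicates 1 to 3, against 27.7, 27.8 and 28.2 in WT replicates 1 to 3. The minus delta Ct was -6.77, -6.87 and -6.70 in NOD1-deficient larvae, against -7.90, -8.19 and -8.29 in WT larvae. The groups did not overlap, and the lowest NOD1-deficient value lay 1.03 above the highest WT value. On a linear scale the transcript was at 0.919%, 0.854% and 0.964% of the reference level in NOD1-deficient larvae, against 0.419%, 0.344% and 0.320% in WT larvae. The log2 change was 1.35 ± 0.158 (SE), or 2.54-fold with a 95% interval of 2.05 to 3.15, and the adjusted p was 1.26e-14 (limma, Benjamini-Hochberg over 84 genes). The two-sided exact permutation p was 0.1, the smallest that 3 arrays against 3 can give.

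Limma estimated 1 common variance for all genes here, so each log2 change has the same SE of 0.158. With the variance of eif2ak2 alone, the SE was 0.127, the 95% interval 0.99 to 1.70 and the adjusted p 0.0125. Its increase was the largest of the 84 genes, and in absolute size it ranked 4. Of the pathway genes, 16 passed (19%), 3 as higher (3.57%) and 13 as lower (15.5%) in NOD1-deficient larvae, and the values of the groups were separated upward in 9.52%. Eif2ak2 is 1 of the genes the study named from these arrays, so its place in that order is a description.

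Adar did not pass the test. Its raw Ct was 22.9, 23.3 and 23.7 in NOD1-deficient replicates 1 to 3, against 24.0, 23.7 and 23.8 in WT replicates 1 to 3. The minus delta Ct was -3.52, -3.77 and -4.13 in NOD1-deficient larvae, against -4.14, -4.08 and -3.93 in WT larvae. NOD1-deficient replicates 1 and 2 lay above the 3 WT values, while replicate 3 lay within their range. On the linear scale the transcript was at 8.72%, 7.33% and 5.70% of the reference level in NOD1-deficient larvae, against 5.66%, 5.93% and 6.57% in WT larvae. The log2 change was 0.24 ± 0.158 (SE), or 1.18-fold with a 95% interval of 0.953 to 1.47 (limma, adjusted p 0.323). The interval leaves room for no change and for an increase of up to 1.47-fold. With the variance of adar alone the interval was -0.28 to 0.77 on the log2 scale. The exact permutation p was 0.3.

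**Figure D1:**
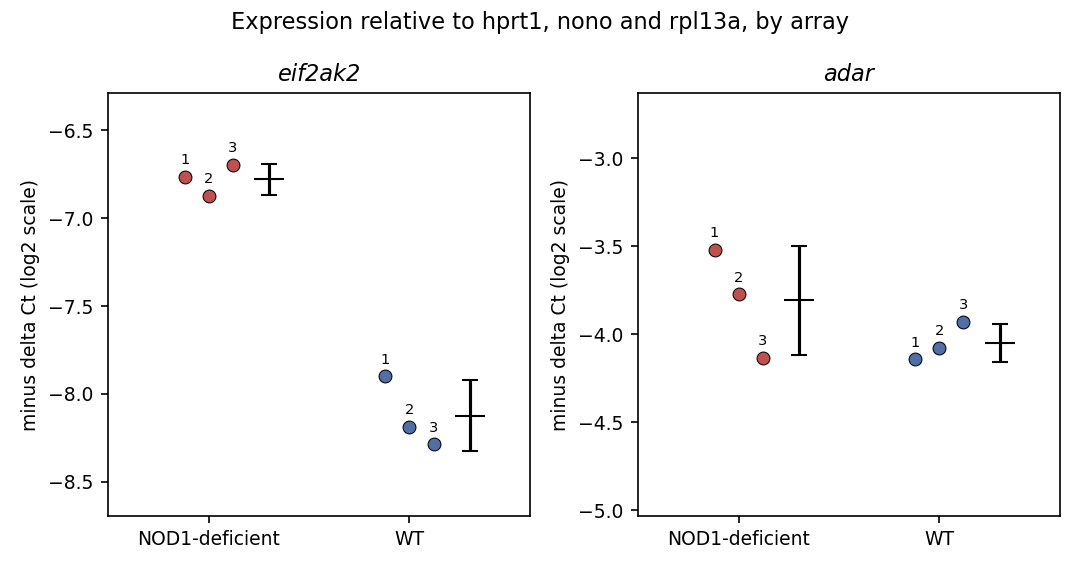
Minus delta Ct (log2 scale) of eif2ak2 and adar on each of the 6 arrays, scaled to hprt1, nono and rpl13a. Points are replicates, numbered as in the Ct table, and the bar beside them gives the mean and SD (n = 3). The eif2ak2 values of NOD1-deficient larvae (-6.87 to -6.70) lie above those of WT larvae (-8.29 to -7.90), while the adar values overlap.

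Over all 84 genes the log2 change had a median of -0.11. Relative to that median, eif2ak2 changed by 1.46 and adar by 0.35. By size of increase, adar ranked 8 of 84.

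**Figure D2:**
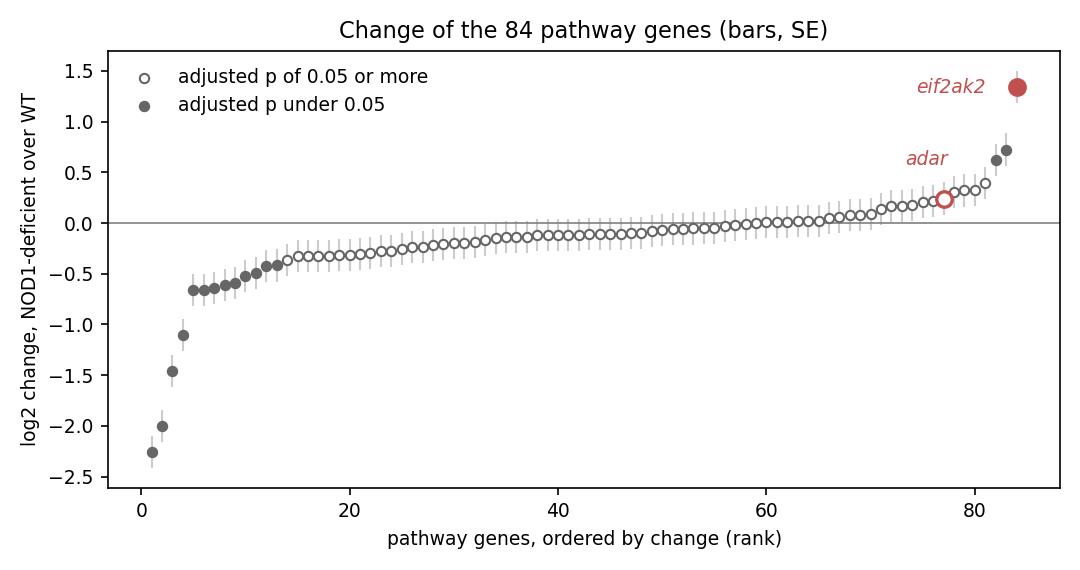
Log2 change (NOD1-deficient over WT) of the 84 pathway genes in order of the change, with the limma SE as bars. Filled points have an adjusted p under 0.05. Eif2ak2 is the highest at 1.35, and adar is an open point at 0.24.

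The next comparison was between the 2 genes on the same array, which needs no reference gene. The Ct of adar minus the Ct of eif2ak2 was -3.25, -3.10 and -2.57 in NOD1-deficient larvae, against -3.76, -4.11 and -4.36 in WT larvae. The values did not overlap, and eif2ak2 was closer to adar on each NOD1-deficient array. The share of all genes separated on this scale was not counted. The mean difference between the 2 genes was -2.97 ± 0.359 in NOD1-deficient larvae and -4.07 ± 0.302 in WT larvae (SD, n = 3 each). The adar signal was therefore 7.84 times that of eif2ak2 in NOD1-deficient larvae and 16.8 times in WT larvae. These ratios compare assays with different primers and products of unknown length, so only their change between the groups was tested.

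The ratio of eif2ak2 to adar rose 2.15-fold in NOD1-deficient larvae, which is 1.10 ± 0.245 (SE) on the log2 scale. Its 95% interval was 0.62 to 1.59 and its adjusted p 0.000154 (limma with adar as the only scaling gene, over 83 genes). In that fit 1 gene was higher (1.2%), which was eif2ak2, and 13 genes were lower (15.7%). The 83 tests share the adar values of the 6 arrays. With a separate variance for each gene the interval was 0.35 to 1.86 and the adjusted p 0.119, so the call was lost. The exact permutation p was 0.1.

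**Figure D3:**
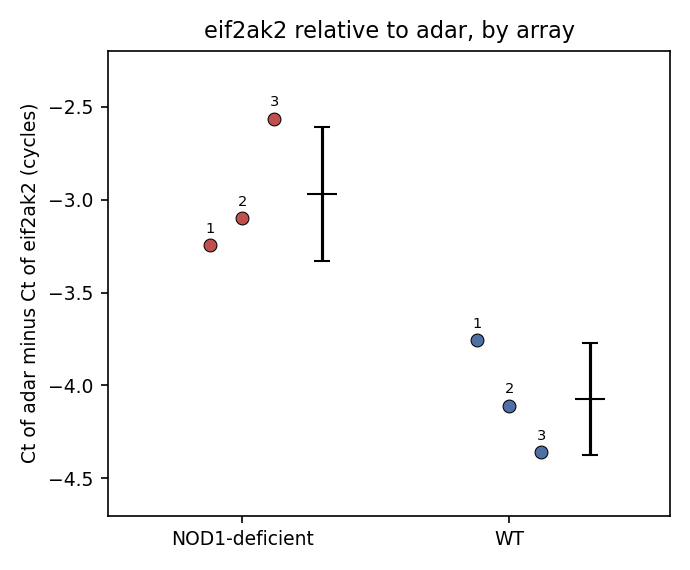
Ct of adar minus Ct of eif2ak2 (cycles) on each array, with the mean and SD (n = 3) beside the points. Less negative values mean more eif2ak2 relative to adar. The NOD1-deficient arrays run from -3.25 to -2.57 and the WT arrays from -4.36 to -3.76.

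The 2 genes also differed in how their replicates spread. The SD of eif2ak2 was 0.0884 in NOD1-deficient larvae and 0.201 in WT larvae (n = 3 each), and its values spanned 0.18 and 0.39 on the log2 scale. For adar the SD was 0.308 in NOD1-deficient larvae and 0.109 in WT larvae, with spans of 0.61 and 0.21. The median SD of the 84 genes was 0.139 in NOD1-deficient and 0.160 in WT larvae. Adar had the rank 8 of 84 by SD in NOD1-deficient larvae and 67 in WT larvae, and eif2ak2 the ranks 62 and 24. An SD from 3 arrays is imprecise, and these differences in spread were not tested.

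**Figure D4:**
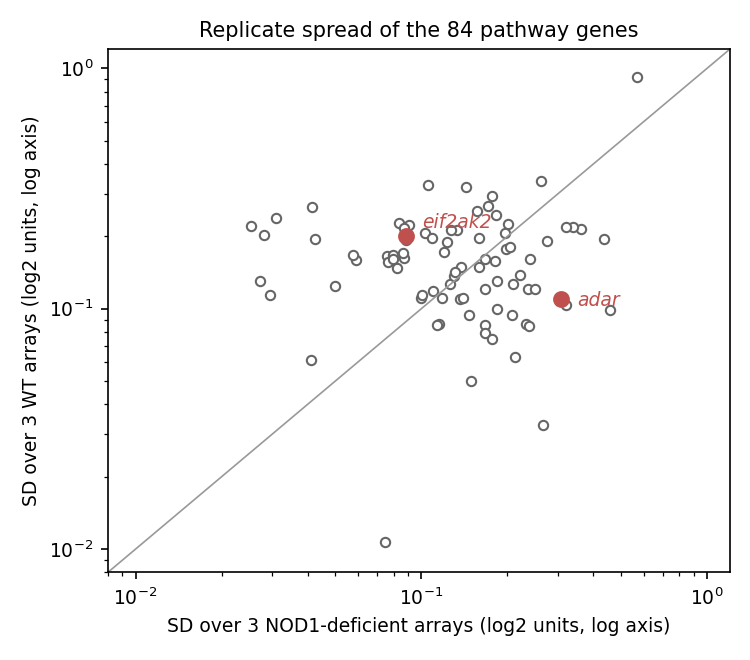
SD of minus delta Ct of the 84 pathway genes over the 3 NOD1-deficient arrays (horizontal) and over the 3 WT arrays (vertical), on log axes, with the line of equal SD. Adar lies to the right of the line, with an SD of 0.308 in NOD1-deficient and 0.109 in WT larvae, and eif2ak2 to its left, with 0.0884 in NOD1-deficient and 0.201 in WT larvae.

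The deviations of single arrays were then set beside those of the whole array. In NOD1-deficient replicate 1 adar lay 0.29 above the mean of its group and in replicate 3 it lay at -0.32 relative to that mean. The median deviation of the 84 genes was -0.046 in replicate 1 and -0.027 in replicate 3. In WT replicate 1 eif2ak2 lay 0.22 above the mean of its group, where the median deviation of the 84 genes was 0.073. The WT array with the largest median deviation was replicate 2, at -0.13, with 76 of the 84 genes below the mean of their group. Eif2ak2 deviated by -0.062 and adar by -0.027 on that array.

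Eif2ak2 was among the genes detected late, and adar was closer to the middle. By minus delta Ct, eif2ak2 had the rank 73 of 84 in NOD1-deficient larvae and 78 in WT larvae, where 1 is the highest. Adar had the ranks 57 and 64. In WT larvae eif2ak2 (-8.12 ± 0.201) stood between srfa (-7.31 ± 0.246) and tirap (-8.37 ± 0.138), and it overlapped tirap but not srfa (SD, n = 3 each). Adar (-4.05 ± 0.109) stood between pik3c2a (-4.03 ± 0.320), which it overlapped, and itga1 (-4.75 ± 0.160), which it did not. Primers and products differ between assays, so these ranks order signals and not transcript numbers.

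The profile over the 6 arrays was compared with that of the other 83 genes, after the WT mean of each gene was taken off. The measure was the root mean square (RMS) difference, in log2 units, and all profiles share the reference genes of the array. For eif2ak2 the nearest genes were fos (0.50), an immediate early transcription factor, faslg (0.54), the ligand of the death receptor Fas, and waslb (0.72), a regulator of actin assembly. The log2 changes of these genes were 0.73 (adjusted p 8.93e-05), 0.62 (adjusted p 0.00093) and 0.39 (adjusted p 0.0643) in limma. In the linear model with a separate variance for each gene, the adjusted p was 0.127 for fos and 0.137 for faslg, so both calls were lost. By size of increase, fos, faslg and waslb ranked 2, 3 and 4, right after eif2ak2. With the WT mean taken off, a difference in log2 change enters the RMS difference. Nearness to eif2ak2 therefore largely repeats that ranking and is no separate result. The median RMS difference from eif2ak2 was 1.04, and 0 of the 83 genes were within 0.3.

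For adar the nearest genes were eif4ebp1 (RMS difference 0.17), an inhibitor of cap-dependent translation, pik3cg (0.17), a catalytic subunit of phosphoinositide 3-kinase, and hspb1 (0.18), a small heat shock protein. None of these 3 genes passed the test (limma, adjusted p 0.408 to 0.745). From adar the median RMS difference was 0.36, with 23 of the 83 genes within 0.3. The RMS difference between eif2ak2 and adar was 0.83. By that measure adar was at place 9 of 83 in the order of nearness to eif2ak2, while eif2ak2 was at place 79 of 83 from adar. Adar ranked 8 by size of increase, so its place 9 is likewise no separate result.

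Next, the effect of the reference genes on each member was examined. Acta1b and b2m, which are the other reference genes of the array, had a higher Ct in NOD1-deficient arrays by 0.61 and 0.20 cycles, whereas hprt1, nono and rpl13a had a lower one, with differences of -0.16, -0.46 and -0.27 cycles. Under 9 other scalings eif2ak2 was higher with an adjusted p under 0.05 in 9 of 9. Its log2 change ran from 1.18 (nono alone) to 2.26 (acta1b alone). Of the 84 genes, 3 passed as higher with nono or rpl13a alone, 37 with b2m alone and 70 with acta1b alone. The NOD1-deficient and WT values of eif2ak2 were separated under all 11 settings, the raw Ct included. With hprt1, nono and rpl13a, 9.52% of the 84 genes were separated upward. This share was not counted under the other settings, so the count of 11 is only a description.

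The call of adar depended on the scaling. Its log2 change was above 0 under each of the 9 scalings, from 0.077 (nono alone) to 1.15 (acta1b alone), and it passed in 4 of 9. These were all 5 reference genes (0.52, adjusted p 0.00283), acta1b alone (1.15, adjusted p 0.000504), b2m alone (0.74, adjusted p 0.000306) and the median Ct of the pathway genes (0.50, adjusted p 0.0332). The first 3 of these scalings include acta1b or b2m. The 4 reference genes without acta1b also include b2m, and adar did not pass there (0.37, limma, adjusted p 0.102). The groups were separated for adar under 5 of the 11 settings. The share of all genes separated under those 5 settings was not counted, so this count is only a description. A change of scaling shifts each gene by the same amount. With all 5 reference genes, 16 of the 84 pathway genes passed as higher and 6 as lower. With acta1b alone it was 70 higher and 2 lower, with b2m alone 37 higher and 4 lower. With the median Ct it was 18 higher and 7 lower, and with hprt1, nono and rpl13a 3 higher and 13 lower. The 4 scalings under which adar passed thus called more genes higher, so its passes there are only a description. Without NOD1-deficient replicate 1 the change of adar was 0.098 (adjusted p 0.86), and without NOD1-deficient replicate 3 it was 0.40 (adjusted p 0.0988).

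**Figure D5:**
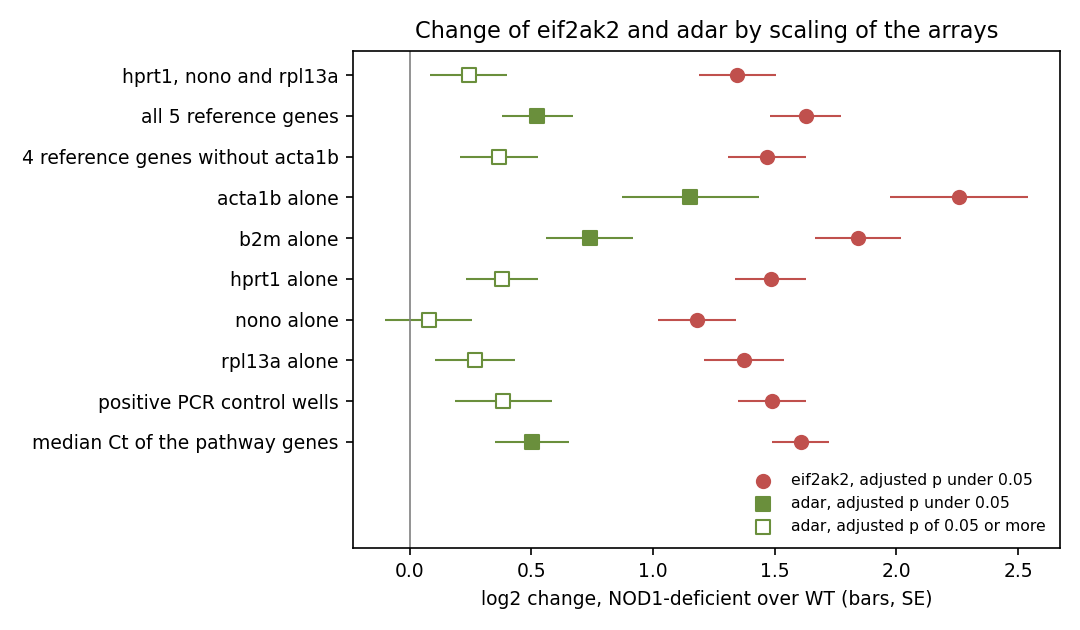
Log2 change (NOD1-deficient over WT) of eif2ak2 (circles) and adar (squares) with 10 ways of scaling the arrays, with the limma SE as bars. Filled symbols have an adjusted p under 0.05. Eif2ak2 is filled throughout (1.18 to 2.26), and adar is filled in 4 settings, with values from 0.077 to 1.15.

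The genes around PKR on the array were read from 3 lists. The array has no assay for eIF2 alpha, the substrate of PKR, nor for the adarb deaminases. Of 5 other translation initiation genes (eif4bb, eif4e1b, eif4ea, eif4ebp1 and pabpc1b), 0 passed, where 19% of all 84 genes did. Their median log2 change was -0.049, with a range of -0.14 to 0.18. Before adjustment, 0 of these 5 genes had a p under 0.05 in limma, against 26 of all 84. In the linear model without moderation 0 of these 5 passed, against 6 of all 84. With acta1b alone as the reference, all 5 passed as higher, as did 70 of the 84 genes. With all 5 reference genes 2 of the 5 passed as higher, and so did 16 of the 84. With b2m alone it was 4 of the 5 (37 of the 84), and with the median Ct 2 of the 5 (18 of the 84). Under the remaining scalings it was 0 of the 5.

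PKR and Toll-like receptors both feed into NF-kB in mammals. Of 8 genes of Toll-like receptor and NF-kB signalling, 1 passed as lower, which was the receptor tlr4bb (log2 change -2.26), and 0 as higher, where 19% of all 84 genes passed in either direction. Tlr4bb was detected late, at rank 83 of 84 by WT level. Its minus delta Ct was -14.0 ± 0.436 in NOD1-deficient and -11.8 ± 0.195 in WT larvae (SD, n = 3 each). The median change of the 8 genes was -0.10, against -0.11 for all 84 genes. Before adjustment, 3 of the 8 genes had a p under 0.05 in limma, against 26 of all 84. With acta1b alone as the reference, 7 of the 8 genes passed as higher and 1 as lower, where 70 of the 84 genes passed as higher and 2 as lower. As higher, 4 of the 8 passed with b2m alone (37 of the 84). It was 2 with all 5 reference genes (16 of the 84) or the median Ct (18 of the 84). It was 1 with hprt1 alone, without acta1b or with the positive PCR control wells (7, 7 and 5 of the 84). With nono or rpl13a alone it was 0 (3 of the 84 each). Of 4 stress MAP kinase and immediate early genes (fos, jun, mapk14a and mapk8b), fos passed as higher and 3 did not pass. In the linear model without moderation 0 of these 4 passed, against 6 of all 84. Among all 84 genes, 3.57% passed as higher. The median change of these 4 genes was 0.16. Under the 9 other scalings, 1 to 4 of these 4 genes passed as higher, against 3 to 70 of the 84 genes, and both highest counts came with acta1b alone.

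The normalized values that the authors deposited, 1 per genotype, were 0.00911 in NOD1-deficient and 0.00359 in WT larvae for eif2ak2. For adar they were 0.0714 in NOD1-deficient and 0.0604 in WT larvae. They equal 2 to the power of the mean minus delta Ct within 2e-07 on the log2 scale for both genes.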

How the data were processed

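Total RNA from whole larvae (1000 ng) was reverse transcribed and run for 40 cycles with SYBR Green on a commercial array, per the labels. The authors deposited raw Ct, which the instrument gives without normalization, and normalized values, which are linear ratios to reference genes. A table of the authors' own fold changes was not used. GEO lists 1 sample for each genotype. The 3 Ct columns of each were taken as biological replicates, as the series text states. Baseline, threshold and primer efficiency are not given in the sources used here, and doubling in each cycle was assumed.

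Ct over 35 was set to 35 (1 value, in another gene). Minus delta Ct of the 84 pathway genes was tested with limma 3.58.1 under R 4.3.3. Tests were two-sided, p-values were adjusted after Benjamini-Hochberg over the tested genes, and the threshold was 0.05. The prior degrees of freedom were infinite, so that all genes shared an SD of 0.194. The fit was run on simulated data in which all genes had the same SD, so that check could not test the shared variance. The number of arrays limits the precision, and p-values measure only the spread between these pools.

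Members, gene lists and tests were chosen with earlier results of these data known. Besides the members, the text names the reference genes, the 3 nearest profiles, the neighbours in WT level, and list members that passed. The members of the short lists that did not pass are named to show what the lists hold. The alternatives were other reference genes, positive PCR control wells, median centring, the variance model and a Student's t-test on linear values. A Ct ceiling of 40, the replicate block and leaving out each replicate were also used. The paper names the t-test for its qRT-PCR and western blots, and for the arrays only the manufacturer's software.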

Additional observations from a re-analysis of the deposited data

How the results depend on the processing

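Eif2ak2 kept its direction and an adjusted p under 0.05 in 20 of 20 alternatives. Its log2 change was 1.18 to 2.26, and 1.26 to 1.46 when 1 replicate was left out. Its adjusted p ran from 3.18e-23 (limma, all 5 reference genes) to 0.0125 (linear model without moderation). The variance model, the replicate block and the Ct ceiling could not move the log2 change of either member, only the p-value. Adar stayed above 0 in 20 of 20 (0.098 to 0.40 when 1 replicate was left out), with an adjusted p of 0.000306 to 0.86. It passed in 4, namely all 5 reference genes (0.52), acta1b alone (1.15), b2m alone (0.74) and the median Ct of the pathway genes (0.50). These scalings add a constant to each gene by construction. The ratio of eif2ak2 to adar (1.10) lost its call without moderation (1.10, adjusted p 0.119) and kept it in the other 8 alternatives. It was 0.90 to 1.26 when 1 replicate was left out. The variance model and the replicate block likewise could not move this ratio, only its p-value. The WT gap between the genes (-4.07 cycles) ran from -4.23 to -3.93 when 1 WT replicate was left out.

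The number of pathway genes called (16, of which 3 were higher) depended on the setting. It became 72 with acta1b alone (70 higher), 41 with b2m alone (37 higher) and 27 with nono alone (3 higher). It was 25 with the median Ct (18 higher) and 10 with the positive PCR control wells (5 higher). Without moderation it was 6 (1 higher), and with the t-test on linear values 5 (18 before adjustment). With hprt1 alone or without acta1b it was 16 (7 higher). With 1 replicate left out the lowest count was 10 (leaving out WT replicate 3) and the highest 21 (leaving out WT replicate 2). In the t-test on linear values the adjusted p was 0.00957 for eif2ak2 and 0.484 for adar. Arrays of the same replicate number did not deviate together (deviations correlated across genes at 0.12, 0.085 and -0.27), and with the replicate block 14 genes passed and neither member changed its call. On all 6 arrays a Ct was missing from the 3 reverse transcription control wells and from the well that controls for genomic DNA. The reverse transcription wells therefore gave no measure of how well that step worked.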
